A study of Homo sapiens with 6 samples.

Results

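The mitochondrial ribosome is built from proteins whose genes lie in the nucleus and are named MRPL for the large subunit and MRPS for the small one. They were chosen by name, as every symbol in the count tables that begins with MRPL or MRPS followed by a digit, which gave 78 of 20683 symbols, 50 for the large and 28 for the small subunit. Of these, 75 are protein-coding genes and 3 are pseudogene symbols (MRPL42P5, MRPL45P2 and MRPS31P5). The cells were HT-1080, an established human fibrosarcoma line. One group of 3 libraries came from cells that had 4 h of SLV-8472-01, described in the series as an inhibitor of the kinase IRAK4, at a labelled dose of 5 mM that may be that of a stock. The other group of 3 libraries came from cells with 0.1% DMSO for 4 h. The series describes 3 biological replicates of each condition, and nothing further says how the cultures were separated. Each library reports amplicons, a short part of each transcript that was reverse transcribed and amplified by PCR.

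As background, the mitochondrial ribosome translates the small set of messenger RNAs of the mitochondrial genome, all of which encode membrane subunits of the respiratory chain and ATP synthase. Its small subunit holds the decoding site and its large subunit joins the amino acids. Its proteins are made in the cytosol, imported and assembled on ribosomal RNA that the mitochondrion itself transcribes. Some have counterparts in the bacterial ribosome and others are found only in mitochondria.

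The inhibitor libraries held 7644478 to 11427779 counts each and the DMSO libraries 12003104 to 15336351, so the treated libraries were the shallower ones. All 9 mesenchymal marker genes listed for the line (among them VIM and FN1) were above 1 CPM (counts scaled to 1e+06 per library, with library sizes adjusted by TMM factors), with a summed level of 9043 to 11020 CPM with the inhibitor and 8223 to 9236 with DMSO. The 4 epithelial markers summed to at most 0.269 CPM in any library, the 3 endothelial ones to at most 0.914 and the 2 neural ones to at most 0.194, with CDH1, KRT20 and SOX10, and the haematopoietic markers PTPRC and CD3E, at 0 counts throughout. In bulk RNA, a change in the number of cells that hold a transcript and a change in its amount per cell cannot be told apart.

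Few of these genes were called as changed, and 7 of the 8 that were called were lower with the inhibitor. Of the 78 symbols, 76 passed the filter on low counts. Among them 1 rose and 7 fell (edgeR quasi-likelihood test over all genes, Benjamini-Hochberg adjusted p under 0.05), which is 10.5% called, beside 20.2% of all 11391 genes tested. By direction, 1.32% of the tested members rose and 9.21% fell, beside 9.92% and 10.3% of all genes. The share that fell was thus close to that of all genes, and the share that rose was smaller. MRPL36, MRPL50 and MRPL35 of the large subunit and MRPS31, MRPS27, MRPS17 and MRPS11 of the small subunit fell, and MRPL53 rose. The largest of these changes, in MRPL36, was a log2 fold change of -0.61, so each was smaller than 2-fold. The count that fell was 4 with upper-quartile scaling, 13 with library totals as the scaling and 3 without any one of the DMSO libraries. With library totals 831 genes rose and 1714 fell over all genes, against 1130 and 1168 with TMM.

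**Figure D1:**
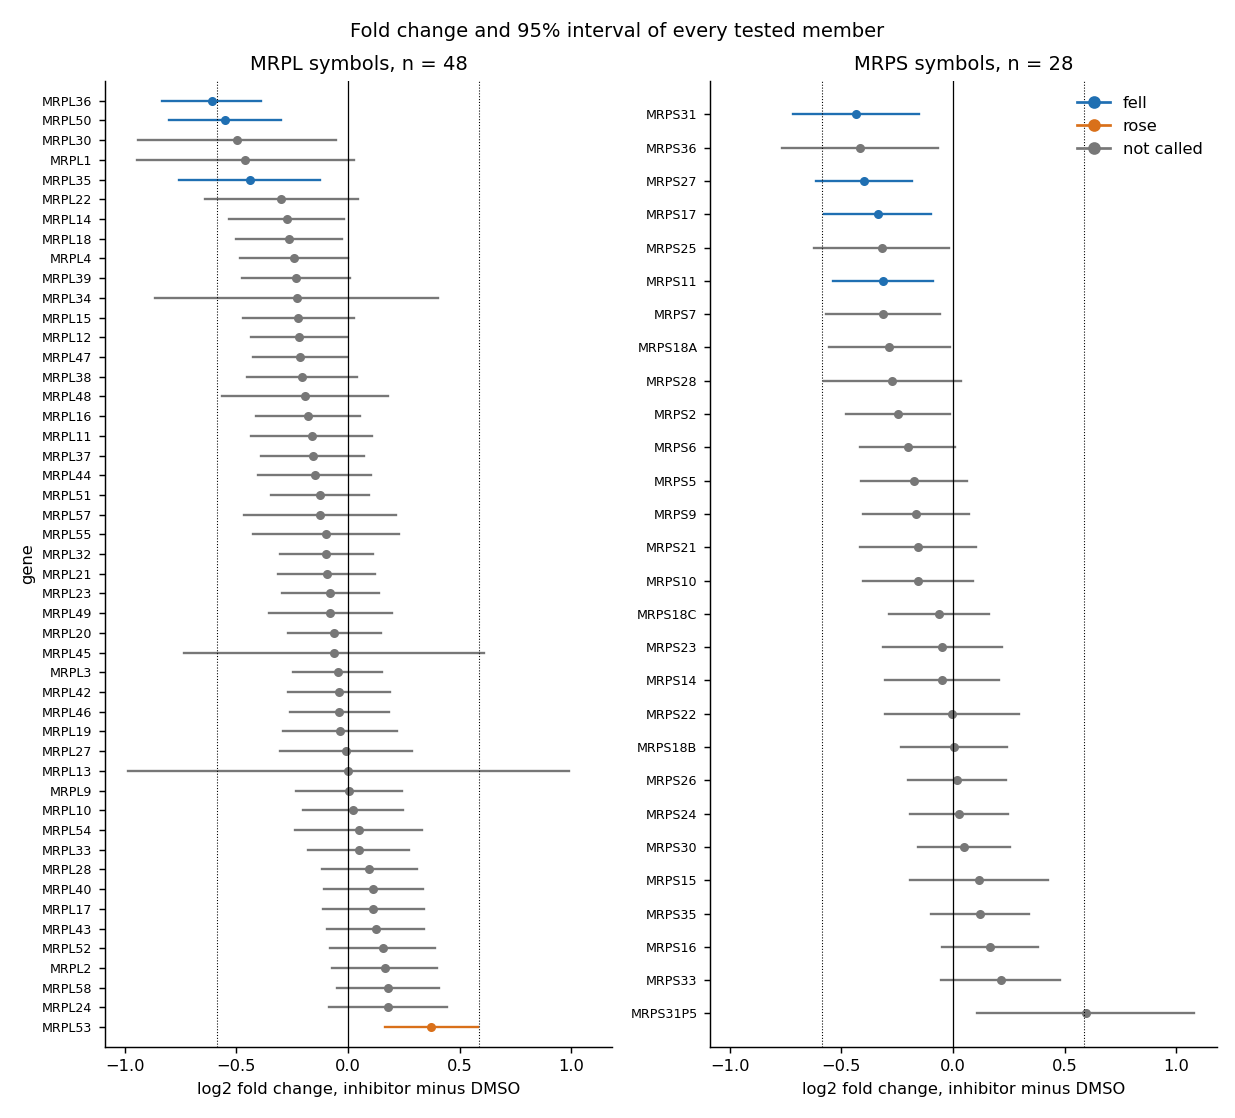
Log2 fold change (inhibitor minus DMSO, points) and its 95% confidence interval (lines) for every tested gene, MRPL symbols at left and MRPS symbols at right; dotted lines mark a 1.5-fold change in either direction. Blue marks genes that fell, orange the gene that rose and grey the 68 genes not called, and 62 of the 76 intervals lie inside the dotted lines.

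MRPL36, the counterpart of the bacterial ribosomal protein L36, had the largest fall. It stood at 41.8, 46.6 and 44.8 CPM in inhibitor replicates 1, 2 and 3 and at 69.3, 64.8 and 69.1 CPM in the DMSO libraries. Every treated library was below every control library by more than the spread within either group. The mean went from 67.7 ± 2.54 CPM (SD, n = 3) to 44.4 ± 2.41, a log2 fold change of -0.61 ± 0.11 (SE; edgeR adjusted p = 0.000317). MRPL50, a large-subunit protein without a bacterial counterpart, was at 63.7, 76.3 and 51.3 CPM after the inhibitor, against 92.9, 92.3 and 95.7 in the controls. The groups did not overlap, but the treated libraries were far more spread than the controls. Its log2 fold change was -0.55 ± 0.12 (adjusted p = 0.00264). MRPL36 and MRPL50 were the members whose call held in each of the 17 alternative analyses that were run, with adjusted p of at most 0.00912 and 0.0452. MRPL35, the counterpart of bacterial L35, was at 10.4, 9.25 and 8.44 CPM after the inhibitor, against 12.8, 13.3 and 12.2 in the controls. Its log2 fold change of -0.44 ± 0.15 only just passed (adjusted p = 0.0444), and the call was lost in 10 of the 17 alternatives, among them those without inhibitor replicate 2 (0.109), inhibitor replicate 3 (0.113) or any one of the DMSO libraries (0.0637 to 0.133).

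MRPL53, another large-subunit protein found only in mitochondria, was the member that rose. It was at 231, 232 and 223 CPM after the inhibitor, against 188, 178 and 162 in the controls. The 3 treated libraries lay close together and above all controls. The mean rose from 176 ± 13.01 to 229 ± 5.14 CPM, a log2 fold change of 0.37 ± 0.10 (adjusted p = 0.0106). Without DMSO replicate 3, the lowest of the controls, the adjusted p was 0.0624.

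In the small subunit, MRPS27, a protein with pentatricopeptide repeats (a motif of RNA-binding proteins in organelles), was at 84.02, 86.05 and 87.4 CPM after the inhibitor, against 124, 109 and 106 in the controls. The treated libraries were nearly equal, and the groups were apart (log2 fold change -0.40 ± 0.10, adjusted p = 0.00879). Without DMSO replicate 1, the highest control, the adjusted p was 0.0537. MRPS31, which has no bacterial counterpart, was at 15.7, 15.4 and 13.7 CPM against 18.1, 21.4 and 21.3 (log2 fold change -0.43 ± 0.14, adjusted p = 0.0270). Its pseudogene symbol MRPS31P5 was at 3.86, 5.55 and 4.29 CPM after the inhibitor, against 3.37, 3.23 and 2.33 in the controls, and was not called (0.59 ± 0.23, adjusted p = 0.0782). Reads from such similar copies may be split between them in the counting, so both values are uncertain.

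MRPS17 and MRPS11 are counterparts of the bacterial proteins S17 and S11. MRPS17 was at 28.3, 32.9 and 28.1 CPM after the inhibitor, against 36.9, 39.1 and 36.9 in the controls (log2 fold change -0.34 ± 0.12, adjusted p = 0.0410). MRPS11 was at 47.2, 50.8 and 56.8 CPM after the inhibitor, against 63.1, 65.1 and 63.7 in the controls (-0.31 ± 0.11, adjusted p = 0.0436). In both the groups were apart, but the gap between them was smaller than the range of the treated libraries. The calls of MRPS17 and MRPS11 were each lost in 8 of 17 alternatives, and that of MRPS31 in 6, each time with the direction kept. Without single libraries the adjusted p reached 0.136 for MRPS17, 0.154 for MRPS11 and 0.107 for MRPS31. MRPS17 was called only when inhibitor replicate 2 was the library left out, MRPS11 only without inhibitor replicate 3, and MRPS31 only without inhibitor replicate 1 or DMSO replicate 1. Tested against a fold of 1.2 (edgeR glmTreat), MRPL36 and MRPL50 were called and the other 6 were not, and 7.28% of all genes were called.

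**Figure D2:**
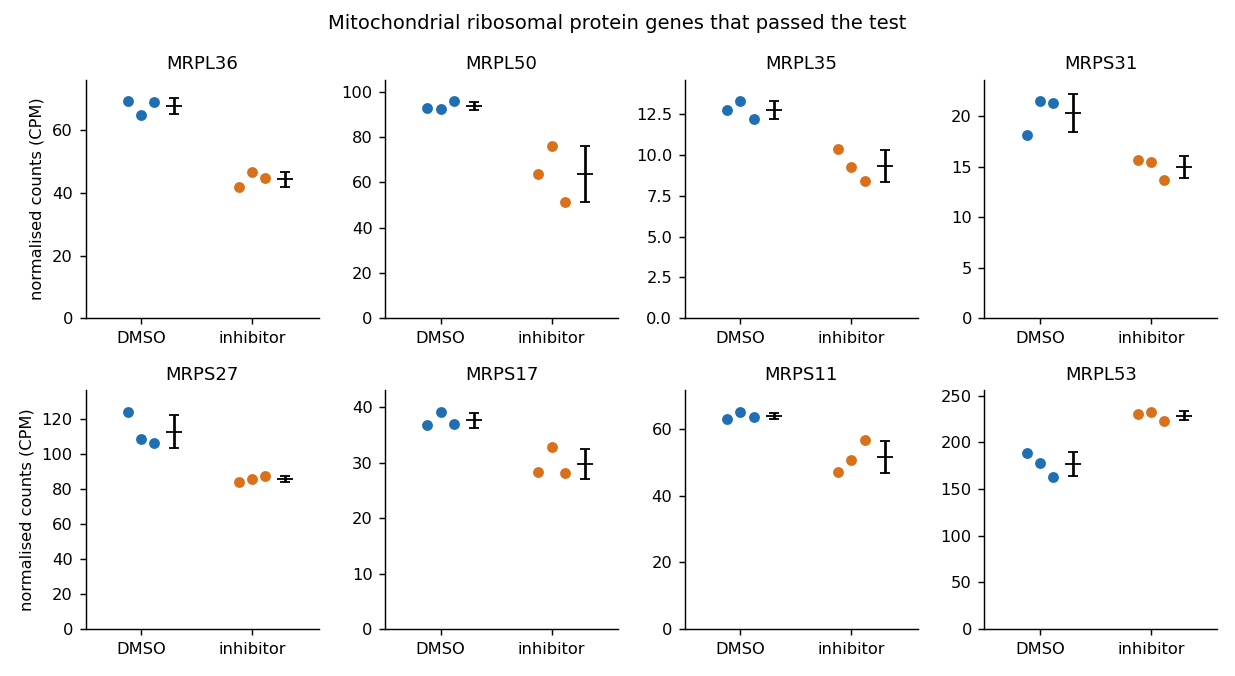
Normalised counts (CPM) of the 8 genes that passed the test, in each DMSO library (blue) and inhibitor library (orange), with the mean and SD of each group in black; every vertical axis starts at 0. In each panel the 2 groups do not overlap: MRPL36, for example, spans 64.8 to 69.3 CPM with DMSO and 41.8 to 46.6 with the inhibitor.

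The sequences before the transcription starts of the 3 genes with the smallest p among those that fell, and of the gene that rose, are shown so that the short motifs counted below can be seen in place. The 250 bases before each start are given 5′ to 3′ on the gene's own strand, which is the minus strand for all 4, from RefSeq's table on GRCh38.p14. They lie at chr5:1799838-1800087 for MRPL36, chr9:101398619-101398868 for MRPL50, chr5:72320241-72320490 for MRPS27 and chr2:74472681-74472930 for MRPL53. Capitals mark matches to the motifs named below.
MRPL36: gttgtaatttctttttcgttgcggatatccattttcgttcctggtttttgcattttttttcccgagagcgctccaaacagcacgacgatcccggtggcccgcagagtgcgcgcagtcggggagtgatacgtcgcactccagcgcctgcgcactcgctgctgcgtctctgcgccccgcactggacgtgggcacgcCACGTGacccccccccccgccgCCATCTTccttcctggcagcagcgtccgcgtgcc
MRPL50: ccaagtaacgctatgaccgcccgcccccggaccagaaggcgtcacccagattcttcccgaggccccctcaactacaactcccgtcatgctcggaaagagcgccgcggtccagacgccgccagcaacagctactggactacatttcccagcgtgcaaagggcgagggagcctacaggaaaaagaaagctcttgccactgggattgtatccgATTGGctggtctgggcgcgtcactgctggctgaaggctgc
MRPS27: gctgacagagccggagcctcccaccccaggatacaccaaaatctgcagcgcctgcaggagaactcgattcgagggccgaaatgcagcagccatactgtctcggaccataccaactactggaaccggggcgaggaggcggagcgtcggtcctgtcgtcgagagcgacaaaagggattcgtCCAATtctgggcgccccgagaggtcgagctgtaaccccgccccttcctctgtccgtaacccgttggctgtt
MRPL53: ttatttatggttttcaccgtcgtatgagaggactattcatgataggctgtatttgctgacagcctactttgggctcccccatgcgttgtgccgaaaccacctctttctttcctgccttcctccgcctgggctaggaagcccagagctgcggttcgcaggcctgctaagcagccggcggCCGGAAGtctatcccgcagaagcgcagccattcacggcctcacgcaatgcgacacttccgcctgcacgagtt

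Motifs of 6 kinds were searched on both strands. The letters of the ETS family were CCGGAAG. Those of the E-box, bound by factors such as MYC, were CACGTG. For NRF1, a regulator of nuclear genes for mitochondria, they were CATGCGC. For the zinc finger factor YY1 they were AAGATGG. The CCAAT box was searched by those letters and the E2F family by TTCCCGC. None of these motifs contains another. In MRPL36 an E-box match began at position -56, where the base just before the start is -1, and a YY1 match on the reverse strand at -34. In MRPL50 a CCAAT match on the reverse strand began at -40, and in MRPS27 one on the forward strand at -71. Each of these 2 genes also had a YY1 match within the first 50 bases after the start, at position 24 in MRPL50 and 17 in MRPS27, which are not printed. MRPL53 had an ETS match at -72 and another, on the reverse strand, beginning at base 1 of the transcript. A match is a description of the letters and shows no binding.

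Of the 75 protein-coding members, 66 had a window of 300 bases (250 before and 50 after the start) in that table. The YY1 letters were in 22 of the 66 (33.3%), against 8.08% of the windows of 8918 tested genes and 6.06% of all 27305 windows. The ETS letters were in 27 (40.9%), against 20.6% of tested genes and 10.7% of all windows. NRF1 letters were in 7 (10.6%, against 7.91% and 4.67%), E2F letters in 9 (13.6%, against 10.8% and 6.56%), the E-box in 6 (9.09%, against 10.5% and 7.43%) and the CCAAT box in 18 (27.3%, against 37.3% and 35.7%). MRPL and MRPS genes had nearly equal shares of YY1 (34.1% of 41 and 32.0% of 25) and of ETS (41.5% and 40.0%). Of the members that fell, 6 had a window. YY1 letters were in 3 of these (MRPL36, MRPL50 and MRPS27) and absent from MRPS11, MRPS17 and MRPS31. MRPS11 held none of the motifs, MRPS17 held only the CCAAT box and MRPS31 only the ETS letters, as MRPL53 did. Whether fallen members differ from the others in these letters was not tested. Members with YY1 letters had a median log2 fold change of -0.112, and the 44 without had -0.112 as well. Members with ETS letters had a median of -0.046 and the 39 without -0.163. With and without the other motifs the medians were 0.005 and -0.149 (NRF1), -0.06 and -0.149 (E2F), -0.118 and -0.112 (E-box) and -0.161 and -0.061 (CCAAT box). These differences were not tested. The mRNA of YY1 itself fell from 174 ± 6.92 to 125 ± 7.92 CPM (log2 fold change -0.48 ± 0.10, adjusted p = 0.00187). That of MYC rose (0.81 ± 0.11, adjusted p = 1.12e-05). Those of NRF1 (-0.36 ± 0.14, adjusted p = 0.0742) and of GABPA, of the ETS family (-0.04 ± 0.11, adjusted p = 0.835), were not called. NRF1 and GABPA are given here after their values were seen. Whether any of these mRNA levels bears on the members was not tested.

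The other 68 tested members were not called. Among MRPL symbols 44 had log2 fold changes from -0.50 to 0.18, with a smallest adjusted p of 0.106. Among MRPS symbols 24 had -0.42 to 0.59, with a smallest adjusted p of 0.0782. Both the 0.59 and the 0.0782 are those of the pseudogene symbol MRPS31P5, and the next highest log2 fold change was 0.21 (MRPS33). Of these MRPL and MRPS symbols, 5 and 6 had an unadjusted p under 0.05. A missing call does not show that a gene stayed the same, but the intervals bound the change: for 62 of 76 members (81.6%) the 95% interval lay within 1.5-fold in both directions, beside 57.6% of all genes tested. Among genes that averaged 5 CPM or more, this held for 62 of 71 members (87.3%) and 69.3% of all such genes. MRPL3, the counterpart of bacterial L3 and the member with the most counts, shows such a bounded value. It was at 1012, 1051 and 959 CPM after the inhibitor, against 1002, 1081 and 1037 in the controls, a log2 fold change of -0.05 with an interval from -0.25 to 0.15. At the other end, MRPL13 had a mean of 1.06 CPM over the 6 libraries, and its interval ran from -0.98 to 0.99, so that a change of nearly 2-fold could not be seen at this depth. MRPL3 and MRPL13 are named after their values were seen. How many counts a gene has here depends on its amplicon as well as its mRNA, so levels are not compared between genes.

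The pseudogene symbols MRPL42P5 and MRPL45P2 did not pass the filter. MRPL42P5 was counted 0, 1 and 2 times in treated cells and 2, 0 and 2 times in controls, and MRPL45P2 had 5, 5 and 2 against 3, 1 and 4. At these counts no difference is detectable.

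Over all tested members the median log2 fold change was -0.10, beside 0.00 over all genes. Of the 76 tested members 53 (69.7%) had a log2 fold change below 0, beside 49.6% of all genes. In 16 members every treated library was below every control, and in 3 every treated library was above. The groups were ordered that way in 18.7% and 17.7% of all genes, respectively. The counts of these genes made up 0.575%, 0.615% and 0.607% of all counts in the inhibitor libraries and 0.657%, 0.665% and 0.634% in the DMSO libraries. These shares did not overlap, and the mean with the inhibitor (0.599% ± 0.0211, SD, n = 3) was 0.920 times that with DMSO (0.652% ± 0.0161). The shares are of raw totals, and the treated libraries were also the shallower ones, whose part in this was not tested. In libraries thinned to the smallest total, 1 member rose and 5 fell. After TMM scaling the summed levels differed less, as given below for each subunit.

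Of 48 tested MRPL symbols 1 rose and 3 fell (8.33% called), and of 28 MRPS symbols 0 rose and 4 fell (14.3%), beside 20.2% called over all genes. The shares that fell, 6.25% of MRPL and 14.3% of MRPS, lay on either side of the 10.3% of all genes. The 0 was also found with DESeq2 and limma voom. The 1 MRPS symbol that was higher at an unadjusted p under 0.05 in edgeR was the pseudogene symbol MRPS31P5. It is among the 28 and in the MRPS median below. The median log2 fold change was -0.10 for MRPL and -0.16 for MRPS, beside 0.00 over all genes. Without inhibitor replicate 1 the MRPS median was -0.08 against -0.10 for MRPL, so the order of the medians rests on that library. Without it 1 MRPS gene rose (MRPS33) and 2 fell. The number of MRPS genes that fell was 1 without any one of the DMSO libraries and 8 with library totals.

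**Figure D3:**
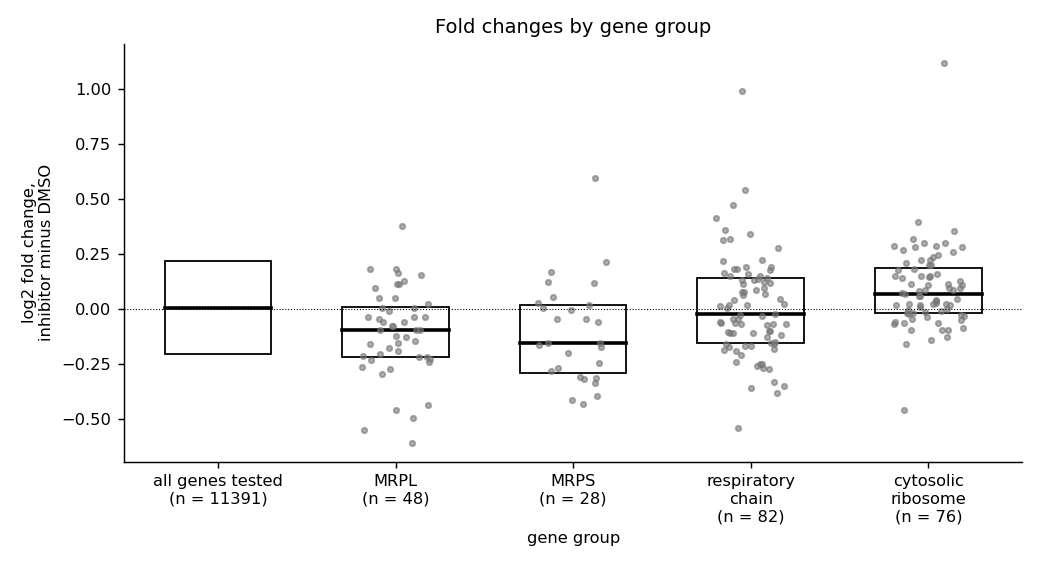
Log2 fold changes (inhibitor minus DMSO) of all genes tested and of 4 gene groups; boxes span the quartiles, thick lines are medians and points are genes (not drawn for all genes). The medians are 0.00 for all genes, -0.10 for MRPL, -0.16 for MRPS, -0.03 for the respiratory chain and 0.07 for the cytosolic ribosome, and the points of the groups overlap widely.

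Per library, the summed level of the protein-coding MRPL genes was 4039, 4268 and 4167 CPM after the inhibitor, against 4257, 4284 and 4263 in the controls. The groups overlapped, since inhibitor replicate 2 lay among the controls. For the MRPS genes the sums were 1852, 2053 and 2047 CPM against 2150, 2069 and 2056, and every treated library was below the lowest control, 2 of them narrowly. The gap between 2053 and 2056 CPM is far smaller than the SD of either group (114 and 50.8). These sums go by gene name. MRPS30 and MRPS18A, which are part of the large subunit, and MRPS36 therefore count as MRPS, and subunit genes with other names are left out. The ratio of the MRPL to the MRPS sum was 2.18, 2.08 and 2.04 with the inhibitor and 1.98, 2.07 and 2.07 with DMSO, which overlapped. Means were 2.10 ± 0.0745 and 2.04 ± 0.0531. Without MRPL3, the gene with the most counts, the ratios were 1.63, 1.57 and 1.57 against 1.51, 1.55 and 1.57, and these overlapped too.

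Taking each gene against its own DMSO mean gives genes with few counts the same weight. Subunits were again taken by gene name. The median deviation of the large subunit was -0.15, -0.05 and -0.11 on the log2 scale in inhibitor replicates 1, 2 and 3. That of the small subunit was -0.19, -0.10 and -0.12. In the DMSO libraries, which form the reference and so centre near 0 by construction, both lay between -0.02 and 0.04. Both subunits were thus lowest in inhibitor replicate 1, while the median over all genes was 0.00 in every library. That library held the lowest value of 33 of the 76 members (43.4%), beside 20% of all genes. Inhibitor replicate 3, the shallowest of the 6, held that of 18 (23.7%, beside 19.6% of all genes).

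**Figure D4:**
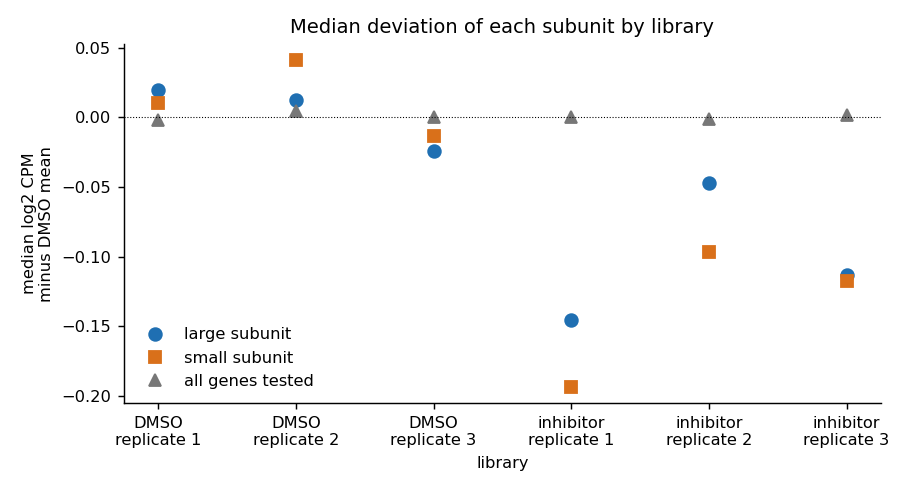
Median over the genes of each subunit (by gene name) of log2 CPM (with 0.5 CPM added) minus the gene's DMSO mean, for each library. Circles are the large subunit, squares the small subunit and triangles all genes tested. Both subunits lie between -0.02 and 0.04 in the DMSO libraries, which centre near 0 by construction. In the inhibitor libraries they lie between -0.05 and -0.19, with inhibitor replicate 1 lowest.

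Gene names and places in the ribosome do not match in every case. MRPS30 and MRPS18A carry small-subunit names but are part of the large subunit, and MRPS36 was reassigned to the oxoglutarate dehydrogenase complex. MRPS30 was at 258, 246 and 266 CPM after the inhibitor, against 233, 243 and 267 in the controls (log2 fold change 0.05 ± 0.10, adjusted p = 0.759). MRPS18A was at 47.6, 64.8 and 70.6 CPM against 82.9, 65.7 and 73.6, and its groups overlapped (-0.29 ± 0.13, adjusted p = 0.129). Without inhibitor replicate 3 it fell (adjusted p = 0.0370), as it did with library totals (0.0459). Its relatives MRPS18B and MRPS18C, which are in the small subunit, had log2 fold changes of 0.00 ± 0.11 and -0.06 ± 0.11. MRPS36 was at 6.64, 7.62 and 8.44 CPM after the inhibitor, against 10.9, 8.91 and 10.2 in the controls. Its groups were apart but it was not called (-0.42 ± 0.17, adjusted p = 0.0837). With library totals it fell (-0.49, adjusted p = 0.0393).

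Subunit proteins with other gene names were not called either (0 of 5 with edgeR, DESeq2 or limma voom, with 1 lower at an unadjusted p under 0.05 in edgeR). Those of the small subunit had log2 fold changes of 0.06 ± 0.11 (DAP3, a GTP-binding protein), -0.06 ± 0.13 (PTCD3, a pentatricopeptide repeat protein), -0.10 ± 0.13 (AURKAIP1) and -0.65 ± 0.28 (CHCHD1). CHCHD1 was at 1.70, 2.94 and 3.22 CPM against 4.65, 2.78 and 4.65, and without DMSO replicate 2 it fell (adjusted p = 0.0476). GADD45GIP1 of the large subunit had 0.03 ± 0.11. With genes assigned by place, 1 of 51 large-subunit genes rose and 3 fell (median -0.10), and 0 of 28 small-subunit genes rose and 4 fell (median -0.13), so the 2 medians were nearer to each other than by name.

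MRPL12, the counterpart of the bacterial stalk protein L12 that has also been reported to bind the mitochondrial RNA polymerase, was at 54.5, 57.4 and 55.2 CPM after the inhibitor, against 62.7, 63.9 and 68.2 in the controls. Its groups were apart but it was not called (-0.22 ± 0.10, adjusted p = 0.144). MRPL58, which releases peptides from stalled ribosomes, was one of the 3 members with every treated library above the controls, at 72.3, 75.6 and 91.2 CPM against 69.1, 70.9 and 70.7, and was not called (0.18 ± 0.11, adjusted p = 0.263). MRPL57, a small protein found only in mitochondria, was at 10.7, 7.83 and 8.98 CPM against 9.99, 10.8 and 9.31, with overlapping groups and no call (-0.13 ± 0.16, adjusted p = 0.636).

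Members with a bacterial counterpart and those found only in mitochondria both held genes that fell. The shares, 8.51% and 11.1%, were near the 10.3% of all genes. Of 47 tested members with a counterpart 0 rose with edgeR, DESeq2 or limma voom (0 also at an unadjusted p under 0.05) and 4 fell (median log2 fold change -0.16), and of 27 without 1 rose and 3 fell (median -0.05). Subunits are taken here by place, so MRPS18A and MRPS30 count as large, and MRPS36 and the pseudogene symbols are in neither class. In the large subunit the medians were -0.10 (31 genes) and -0.06 (19 genes), and in the small subunit -0.16 (16 genes) and -0.03 (8 genes). The shares that rose were 0% with a counterpart and 3.7% without, beside 9.92% of all genes. These are descriptions, and the differences between classes were not tested.

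Of 27 tested assembly factors of the mitochondrial ribosome, 5 rose (18.5%) and 2 fell (7.41%), beside 9.92% and 10.3% of all genes, with a median log2 fold change of 0.04. FASTKD2, which acts on the ribosomal RNA of the large subunit, fell from 31.7 ± 3.92 to 22.2 ± 0.582 CPM (-0.52 ± 0.12, adjusted p = 0.00511), and RCC1L fell by 0.39 on the log2 scale (adjusted p = 0.0214). YBEY (0.47 ± 0.15), RPUSD3 (0.44 ± 0.14) and the ribosomal RNA methyltransferase gene NSUN4 (0.39 ± 0.13) rose, with adjusted p from 0.0312 to 0.0402, and YBEY and RPUSD3 did so with overlapping groups. The calls of RPUSD3 and NSUN4 were lost without inhibitor replicate 1 (adjusted p of 0.128 and 0.119), that of RCC1L without inhibitor replicate 2 (0.0859) and those of all 4 without DMSO replicate 2 (0.0805 to 0.164). Single omissions of other libraries also ended some of these calls. With library totals as the scaling, the adjusted p was 0.0608 for YBEY, 0.0636 for RPUSD3 and 0.0964 for NSUN4. Of 23 translation factors and related genes, 2 rose and 0 fell (8.7% called, median -0.03). With DESeq2 0 fell and with limma voom 1, and 3 were lower at an unadjusted p under 0.05 in edgeR. The initiation factor gene MTIF2 was at 121 ± 2.09 CPM in treated cells, against 91.5 ± 2.20 in controls (0.40 ± 0.10, adjusted p = 0.00627), and MTO1, which modifies mitochondrial transfer RNA, rose by 0.39 ± 0.12 (adjusted p = 0.0248). The call of MTO1 held without inhibitor replicate 1 but was lost without any other library (0.0587 to 0.109), and with library totals (0.0636).

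Of 21 tested genes for making and processing mitochondrial RNA, 1 rose and 4 fell (23.8% called, close to the 20.2% of all genes; median -0.14). FASTKD1 and FASTKD3, both RNA-binding proteins of the mitochondrion, fell from 17.9 ± 3.09 to 9.78 ± 2.35 CPM (-0.88 ± 0.17, adjusted p = 0.000945) and from 39.0 ± 5.62 to 24.1 ± 5.91 CPM (-0.70 ± 0.15, adjusted p = 0.00189). TFAM, which packages mitochondrial DNA and starts its transcription, fell from 87.5 ± 1.85 to 63.9 ± 5.89 CPM (-0.45 ± 0.11, adjusted p = 0.00449). SUPV3L1, a helicase of RNA turnover, rose by 0.50 ± 0.12 (adjusted p = 0.00605). Of 11 regulators of mitochondrial genes, a list that also holds TFAM and YY1, 1 rose and 3 fell (36.4% called, on few genes). The transcription factor gene MYC rose from 37.1 ± 0.999 to 65.1 ± 3.44 CPM (0.81 ± 0.11, adjusted p = 1.12e-05), and the coactivator gene PPARGC1B fell from 12.1 ± 0.676 to 7.69 ± 1.05 (-0.66 ± 0.16, adjusted p = 0.00608).

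Of 76 tested genes of the cytosolic ribosome, 5 rose and 0 fell (6.58% called, median log2 fold change 0.07), and 24 of them (31.6%) had a value below 0. With DESeq2 and with limma voom 8 rose and 0 fell, and 1 was lower at an unadjusted p under 0.05 in edgeR. RPS29 had the largest rise, from 21.1 ± 0.782 to 45.8 ± 2.84 CPM (1.12 ± 0.11, adjusted p = 3.30e-07). RPL22L1 rose by 0.39 and RPLP2 by 0.35 on the log2 scale, and the adjusted p without DMSO replicate 2 was 0.0607 and 0.165. With library totals that of RPLP2 was 0.0521. Of 82 tested nuclear genes of the respiratory chain and ATP synthase, 6 rose and 2 fell (9.76%, median -0.03), and 42 (51.2%) had a value below 0. NDUFA4L2 rose by 0.99 ± 0.23 (adjusted p = 0.00340) and NDUFS5 fell by 0.36 on the log2 scale (adjusted p = 0.0263, and 0.133 without inhibitor replicate 1 or 0.110 without DMSO replicate 2). Both groups, like the mitochondrial ribosomal genes, had a smaller share called than the 20.2% of all genes. Whether the groups differ from each other was not tested.

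Some members begin head to head with another gene, on the opposite strand and within 1000 bases of its start. This held for 21 of the 66 members with a window (31.8%), beside 25% of 8918 tested genes. Both genes were tested in 14 such pairs. MRPL46 and MRPS11, a gene of each subunit with starts 320 bases apart, are such a pair. MRPS11 fell, as given above, while MRPL46 was at 155, 184 and 201 CPM after the inhibitor, against 175, 189 and 190 in the controls (-0.04 ± 0.11, adjusted p = 0.839). Of the other members that fell, MRPL50 and MRPS27 had such a neighbour, and neither neighbour was called. ZNF189 beside MRPL50 had a log2 fold change of 0.24 (adjusted p = 0.729), and PTCD2 beside MRPS27 had 0.23 (adjusted p = 0.225). Beside members that were not called, TCP1 (next to MRPL18, -0.29), HIRA (next to MRPL40, -0.46) and SKA3 (next to MRPL57, -0.73) fell and PPP1R10 (next to MRPS18B, 0.68) rose. Of the 15 neighbours tested, which include MRPS11 and MRPL46, 1 rose and 4 fell, beside 9.92% and 10.3% of all genes. In none of the 14 pairs were both genes called. Only the pairs of MRPL50, MRPS27 and MRPS11 held a called member, and 20.2% of all genes were called. Too few pairs could have had both genes called to say whether neighbours change together, which was not tested.

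**Figure D5:**
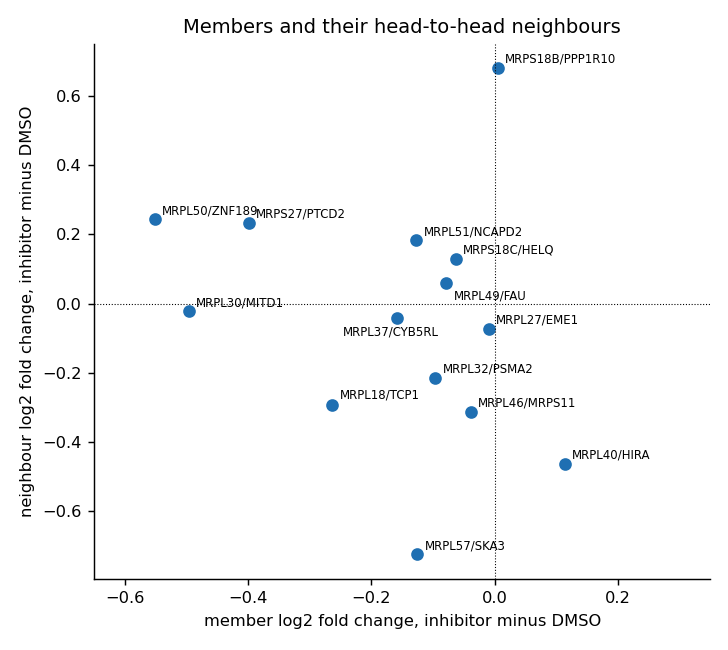
Log2 fold change (inhibitor minus DMSO) of a mitochondrial ribosomal protein gene (horizontal axis) and of the gene that begins head to head with it (vertical axis), for the 14 pairs with both genes tested; each point is a pair, named member first. The points spread in both directions: MRPL50 is at -0.55 with its neighbour ZNF189 at 0.24, and MRPL57 at -0.13 with SKA3 at -0.73.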

How the data were processed

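RNA of 6 HT-1080 libraries was profiled with the Ion AmpliSeq Transcriptome panel on an Ion Proton, per the labels. The deposited values are raw counts per gene symbol, 1 table per library. The submitters' processing notes list HTSeq, DESeq2 1.20.0 and hg19 with no roles. The aligner is not given in the sources used here, nor are the annotation and the strand setting. The shared replicate numbers were not found to pair the libraries, so p-values rest on the spread between libraries, which may be technical. No 2 libraries of a group were alike within counting noise (chi-square over its degrees of freedom, 9.32 to 14.7), so none was merged as a repeat deposit. This does not show that they are biological replicates, which rests on the series' description.

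Counts were analysed with edgeR 4.0.16 in R 4.3.3: filterByExpr kept 11391 of 20683 symbols, with TMM scaling, glmQLFit and glmQLFTest (inhibitor minus DMSO, no covariates) and Benjamini-Hochberg adjustment, calling genes below an adjusted p of 0.05. Rose and fell refer to calls. SE was derived as the log2 fold change over the root of F, and intervals are 95%. Counts of PCR reads are not independent molecules. For a gene at 0 counts the floor of 3 counts is 0.196 to 0.392 CPM by library, for counting error only. The procedure was tested on simulated counts. Members and lists were chosen with earlier results of these data known. Named were all called members, those that failed the filter, MRPS30, MRPS18A, MRPS18B, MRPS18C, MRPS36, MRPL12, MRPL57, MRPL58 and the subunit genes with other symbols, and per list up to 3 called genes in each direction with the largest change. Motif windows and neighbours used the first RefSeq start listed per symbol (GRCh38.p14), joined by symbol only. Other analyses changed the scaling (size factors of DESeq2, upper quartile, totals), the filter (2 settings), the design (a replicate block), the test (DESeq2 1.42.0, limma voom 3.58.1, a fold of 1.2) or the input (thinned libraries, no counts of the 20 genes with the highest levels, 1 library fewer). The summed level of 1 marker list is not reported here.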

Additional observations from a re-analysis of the deposited data

How the results depend on the processing

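Directions of the 8 called members held in all 17 alternatives, and MRPL36 and MRPL50 were called in each. Counts below are over the tested symbols. With upper-quartile scaling 4 members fell, 2 of them MRPS. With library totals 13 fell (5 MRPL, 8 MRPS), the medians were -0.17 (MRPL) and -0.23 (MRPS), and the median over all genes was -0.07. Against a fold of 1.2, 449 genes rose and 380 fell, and 0 members rose and 2 fell, 0 of them MRPS and 0 MRPL rising. With each library left out in turn, the numbers ranged from 684 to 1133 genes that rose and 721 to 1113 that fell, 0 to 2 members that rose and 3 to 7 that fell, 0 to 1 MRPL and 0 to 1 MRPS that rose, 2 to 3 MRPL and 1 to 4 MRPS that fell, and medians of -0.12 to -0.08 for MRPL and -0.17 to -0.08 for MRPS (-0.077 without inhibitor replicate 1). The lowest count of all genes came without DMSO replicate 2. Leaving out a library leaves fewer samples, and the cause of the other changes was not tested.

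Only some genes were followed one by one through the alternatives, and most uncalled members were not. Among those followed, signs turned only for genes near 0 and without a call. With library totals the log2 fold changes were -0.019 for MRPS30, -0.066 for MRPS18B, -0.0098 for DAP3 and -0.045 for GADD45GIP1. MRPS18B was also at -0.012 with no filter, -0.0060 with the replicate block, -0.0088 with limma voom and -0.014 in thinned libraries. With single libraries left out, MRPS18B ranged from -0.078 to 0.13, DAP3 from -0.039 to 0.16, PTCD3 from -0.18 to 0.071, GADD45GIP1 from -0.053 to 0.14 and AURKAIP1 from -0.27 to 0.022.

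The replicate numbers were not found to mark pairs. Deviations of same-numbered libraries correlated at 0.0353, -0.0203 and 0.00413. Those of differently numbered libraries of the 2 groups correlated at -0.0849 to 0.0853, so all were near 0. With the replicate block 1086 genes rose and 1137 fell, 1 member rose and 6 fell, and MRPS11 was not called (adjusted p = 0.0525). At this depth 14 of the 76 members had intervals that reached past a 1.5-fold change.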

Other observations

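The treated libraries were slightly more spread than the controls among these genes, and about as much so as elsewhere. The SD of log2 CPM was larger with the inhibitor in 46 of 76 members (60.5%) and in 58.8% of all genes tested, with medians over the members of 0.129 with the inhibitor and 0.103 with DMSO. Some uncalled genes, named after their values were seen, show it. MRPL24 was at 155, 190 and 248 CPM in inhibitor replicates 1, 2 and 3, and at 181, 167 and 175 with DMSO. MRPS23 was at 43.8, 55.4 and 65.9 CPM against 60.4, 57.5 and 51.8. MRPS28 was at 27.8, 47.9 and 38.9 CPM against 43.7, 42.4 and 51.8. In each of these inhibitor replicate 1 had the lowest value of its group.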
